A study of Homo sapiens with 19 samples.

Results

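The human miR-148/miR-152 family was followed in RNA from the medium of Caco-2 cells and in RNA from the cells themselves. Its 3 members, hsa-miR-148a-3p, hsa-miR-148b-3p and hsa-miR-152-3p, were taken by name from the count files, and a name missing from a file was set to 0. They are 3 of the 1043 mature miRNAs that had counts in any of the libraries used. All 3 names were found: miR-148a-3p and miR-148b-3p had counts in 18 of 18 libraries and miR-152-3p in 13.

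Caco-2 is an established line of epithelial cells from a human colorectal tumour, labelled wild type here, and the libraries come from small RNA sequencing with 50-base single reads. Cells grown in medium with 20% fetal bovine serum were moved at 80% confluence to medium without serum or antibiotics for 24 h, after which medium and cells were collected. Debris was spun out of the medium, and the cleared medium gave 4 groups. S100 (3 libraries used) is RNA precipitated from what stayed in solution after spins at 40000 and 100000 × g. P100 (4 libraries) is RNA from the pellet of the 100000 × g spin. P40 (4 libraries) is RNA from the pellet of the 40000 × g spin. Total exRNA (4 libraries) is RNA precipitated from cleared medium that had no high-speed spin. Cell lysate (3 libraries) is RNA from the cells themselves. All groups share the serum-free period and the same line, and the pellets are defined by spin speed alone. RNA of S100 and total exRNA was precipitated before Trizol extraction, whereas RNA of P100, P40 and cell lysate went into Trizol directly, so a difference between these 2 sets of groups cannot be told apart from that step. The labels give each library a batch number equal to its replicate number but leave unsaid whether each replicate was its own culture, and the p-values below therefore cover the spread between these libraries, which may be technical.

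A miRNA guides an Argonaute protein to messenger RNAs that pair with its seed, the bases near its 5′ end, and so lowers the output of those messengers. The miR-148/miR-152 family is known for targeting the DNA methyltransferase DNMT1, and miR-148a-3p also for targeting the cholesterol transporter ABCA1. In the gut, miR-148a-3p is best known as a miRNA whose level is reduced in many tumours of the stomach and colon.

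The mature sequences are shown because the shared seed defines the family and the few differing bases decide which member a read is counted for. All are from RefSeq on GRCh38.p14, written 5′ to 3′, and the capitals mark the seed, bases 2 to 8.
hsa-miR-148a-3p: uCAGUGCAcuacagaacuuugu
hsa-miR-148b-3p: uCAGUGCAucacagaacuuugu
hsa-miR-152-3p: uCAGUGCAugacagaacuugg
Of 2370 mature human miRNAs in the RefSeq table, only these 3 hold CAGUGCA at bases 2 to 8. Counted from 1 at the 5′ end, miR-148a-3p differs from miR-148b-3p by C9U and U10C. It differs from miR-152-3p by C9U, U10G and U20G, with miR-148a-3p's base given first, and miR-152-3p is 21 bases long against 22 for the others. Between miR-148b-3p and miR-152-3p the differences are C10G and U20G. How reads that match several members were assigned is not given in the sources used here, so the split of counts between members, above all between miR-148a-3p and miR-148b-3p, carries that uncertainty.

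The hairpins, also from RefSeq on GRCh38.p14, are shown for their place in the genome, with the arm that gives the mature miRNA in capitals.
MIR148A: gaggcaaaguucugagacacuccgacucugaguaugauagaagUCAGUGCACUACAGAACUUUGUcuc
MIR148B: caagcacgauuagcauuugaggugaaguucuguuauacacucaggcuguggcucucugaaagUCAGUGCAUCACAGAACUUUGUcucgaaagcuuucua
MIR152: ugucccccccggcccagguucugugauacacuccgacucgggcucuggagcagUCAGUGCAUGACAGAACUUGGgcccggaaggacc
MIR148A lies at chr7:25949919-25949986 on the minus strand, outside any other gene of GENCODE release 29. MIR148B lies at chr12:54337216-54337314 on the plus strand, in an intron of COPZ1 and also in an intron of AC078778.2, annotated as sense overlapping on that strand. MIR152 lies at chr17:48037161-48037247 on the minus strand, in an intron of COPZ2. COPZ1 and COPZ2 are paralogous genes for a subunit of the coat of vesicles that move from the Golgi to the endoplasmic reticulum, and both hairpins lie on the same strand as their host gene. The arms on the other side of the hairpins were much rarer: miR-148b-5p and miR-152-5p had 0 of 1235187 counts over the 18 libraries, which allows a share of up to 0.000243% each.

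Library totals ranged from 198878 to 225290 counts in S100, 10017 to 27027 in P100, 10490 to 26096 in P40, 34427 to 61622 in total exRNA and 37453 to 157051 in cell lysate. S100 replicate 1 held 48 counts and was left out. Levels below are CPM, read counts scaled to a common library total, adjusted by TMM, a normalization that assumes most miRNAs keep their level, and differences are log2 fold changes ± SE from edgeR's quasi-likelihood test over 227 tested miRNAs, with Benjamini-Hochberg adjusted p below 0.05 as the threshold. A CPM is a share of each library's miRNA counts, so less of a miRNA and more of the others cannot be told apart. All 8 miRNAs of an epithelial and gut epithelial marker list were found in every group, with summed shares of 2.59% to 2.95% of counts in S100, 2.97% to 4.37% in P100, 3.66% to 4.27% in P40, 4.45% to 5.40% in total exRNA and 4.31% to 5.56% in cell lysate. Single members went in both directions. In S100 against cell lysate miR-192-5p and miR-215-5p were called higher, and miR-194-5p, miR-200b-3p and miR-200c-3p lower, beside 32.2% and 30% of all tested miRNAs. Mean levels of miR-192-5p were 16355 CPM in S100 and 4807 in cell lysate, and those of miR-200c-3p 3726 and 48331. Against total exRNA 2 members of the list were called higher in S100 and 5 lower, beside 29.5% and 33.9%. A mesenchymal list of 5 stayed at or below 0.189% in every library: all 5 were found in S100, 3 in P100, 4 in P40, 3 in total exRNA and 3 in cell lysate, with miR-199a-3p at 0 in the last 4 groups and miR-199a-5p at 0 in P100, total exRNA and cell lysate. Its only tested member, miR-214-3p, averaged 241 CPM in S100, 813 in P100, 176 in P40, 452 in total exRNA and 446 in cell lysate. miR-214-3p was called lower in S100 than in P100 (-1.78 ± 0.71, adjusted p 0.0344), beside 31.3% of all tested miRNAs. That call was lost with no filter on low counts and with DESeq2.

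miR-148a-3p was the dominant member and was higher outside the cells than inside them in total exRNA and in P40. In total exRNA its level was 3417, 5904, 3779 and 4054 CPM in replicates 1 to 4, from 131, 399, 205 and 146 counts. In P40 it was 2758, 2687, 5118 and 5772 CPM, from 44, 50 and 73 counts in replicates 1, 2 and 4 and from 0.567% of 26096 counts in replicate 3. In cell lysate it was 1221, 1628 and 2191 CPM, from 35, 220 and 136 counts. Every total exRNA and every P40 library thus lay above every cell lysate library. It ranked between 34 and 50 by count among the miRNAs of a total exRNA library, between 30 and 56 in P40 and between 63 and 83 in cell lysate.

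Total exRNA averaged 4289 ± 1108 CPM (SD, n = 4) against 1680 ± 487 CPM in cell lysate (SD, n = 3), a log2 fold change of 1.34 ± 0.40 with an adjusted p of 0.0136. In this comparison 18.9% of tested miRNAs were called higher and 35.2% were called in either direction. Within the 3 batches that hold both groups, the difference was 0.79 to 1.86 on the log2 scale. Its sign in each batch follows from the separate ranges and is no further support. The call held under all 14 alternatives tried, with log2 fold changes of 1.09 to 1.68 and adjusted p-values of 0.000277 to 0.0435.

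P40 averaged 4084 ± 1594 CPM (SD, n = 4), a log2 fold change of 1.27 ± 0.41 over cell lysate with an adjusted p of 0.0197, where 13.7% of tested miRNAs were called higher. Within 3 batches the difference ran from 0.72 to 1.22, with a sign that again follows from the separate ranges. The call was less stable than the one for total exRNA: it held in 8 of 14 alternatives. Without P40 replicate 3 the adjusted p was 0.0527, without P40 replicate 4 0.0637, without cell lysate replicate 1 0.0753 and without cell lysate replicate 2 0.0967. With no filter on low counts it was 0.0718, and with only the 2 groups in the fit 0.0532. The log2 fold change itself stayed between 1.11 and 1.63 over all 14.

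A list of 8 blood cell and serum miRNAs also had higher shares in total exRNA and P40 than in cell lysate, and in P100 as well. Their summed share was 0.0426% to 0.0649% in S100, 0.1997% to 0.321% in P100, 0.326% to 0.423% in P40, 0.137% to 0.242% in total exRNA and 0.0554% to 0.102% in cell lysate. Of these, 6 were found in S100, with miR-142-5p and miR-150-5p at 0. In P100 and in P40 6 were found, with miR-142-3p and miR-142-5p at 0, and in total exRNA 7, with miR-142-5p at 0. In cell lysate 5 were found, with miR-451a, the main miRNA of red cells, at 0 along with miR-144-3p and miR-223-3p. Over each whole group miR-451a had 38 counts in S100, 46 in P100, 71 in P40 and 50 in total exRNA. Of the 3 tested members of this list, miR-451a and miR-486-5p were called higher in total exRNA and in P40 than in cell lysate, and lower in S100 than in total exRNA and P40. Of all tested miRNAs 18.9% were called higher in total exRNA and 13.7% in P40 than in cell lysate, and 33.9% were called lower in S100 than in total exRNA and 27.8% than in P40. Both were also called where miR-148a-3p was not: higher in P100 than in cell lysate, and lower in S100 than in P100. Of all tested miRNAs 16.7% and 31.3% were called so. In S100 against cell lysate miR-451a was called higher and miR-486-5p lower, beside 32.2% and 30% of all tested miRNAs. The third, miR-122-5p, was called in none of the 10 comparisons. The part of such RNA in the miR-148a-3p differences was not tested.

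**Figure D1:**
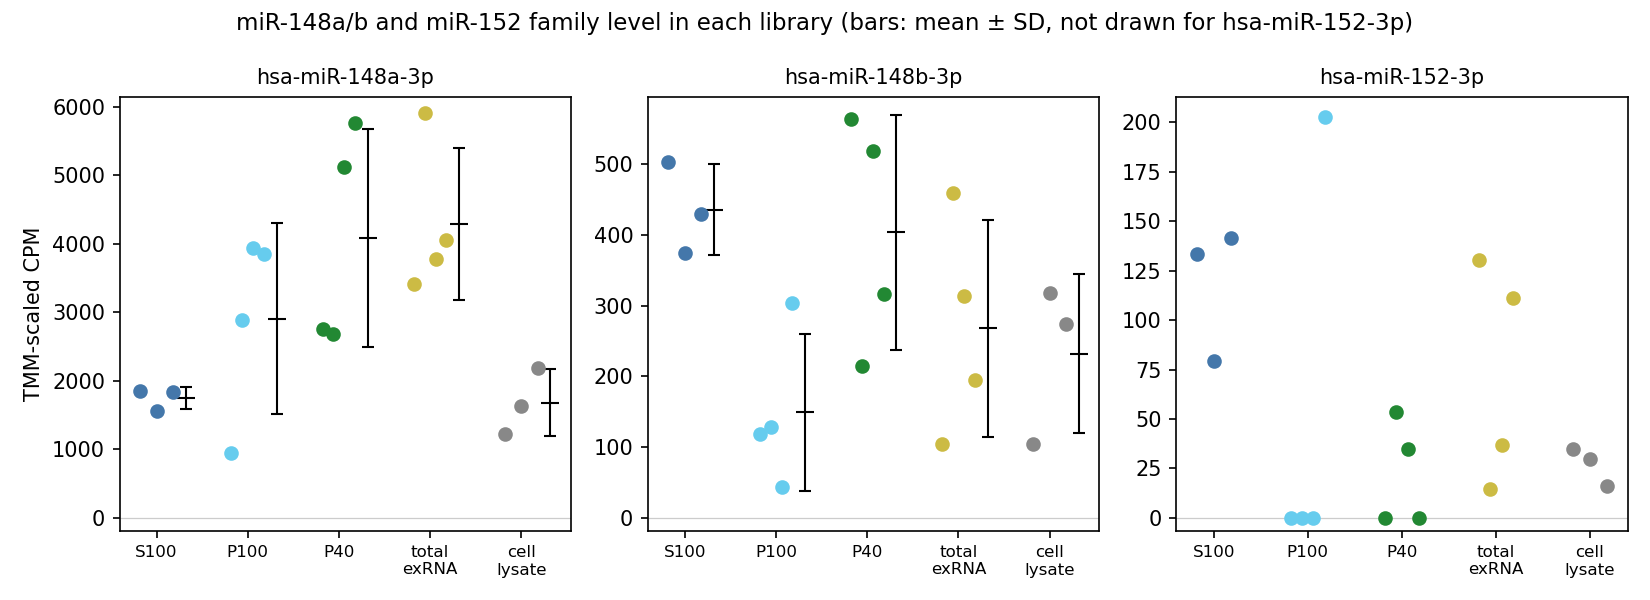
Level of each member in each library, as TMM-scaled CPM on a linear axis, for S100, P100, P40, total exRNA and cell lysate; points are libraries, and black bars beside them give the mean and SD for miR-148a-3p and miR-148b-3p. All total exRNA and P40 points of miR-148a-3p lie above the 3 cell lysate points, and the 3 S100 points of miR-148b-3p lie above all P100 and cell lysate points.

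S100, the fraction left in solution, stood low for miR-148a-3p among the extracellular groups. Its level there was 1859, 1565 and 1835 CPM in replicates 2, 3 and 4, from 362, 376 and 350 counts, which is the tightest group at 1753 ± 163 CPM (SD, n = 3). The 3 libraries lay below all 4 of total exRNA and all 4 of P40, and inside the range of cell lysate. Against total exRNA the log2 fold change was -1.29 ± 0.40 with an adjusted p of 0.00742, where 33.9% of tested miRNAs were called lower. Within 3 batches it ran from -1.67 to -1.14. Against P40 it was -1.22 ± 0.40 with an adjusted p of 0.0134, where 27.8% were called lower. Within 3 batches it ran from -1.71 to -0.53. As the ranges are separate, the sign within batches was fixed in both comparisons. The median log2 fold change of all 227 tested miRNAs was -0.34 against total exRNA and -0.30 against P40, so part of each difference is shared with the typical miRNA under this scaling. Relative to that median, miR-148a-3p was at -0.95 against total exRNA and -0.92 against P40, and at -0.96 and -0.91 with no filter on low counts.

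Both S100 calls depended on the settings. Against total exRNA the call held in 9 of 14 alternatives. It missed the threshold with no filter on low counts (-0.84, adjusted p 0.183), without total exRNA replicate 4 (-0.98, 0.0522) and without S100 replicate 2 (-1.02, 0.0708), 3 (-0.94, 0.0980) or 4 (-0.997, 0.0762). Against P40 it held in 8 of 14, and missed with no filter (-0.54, adjusted p 0.559), without P40 replicate 3 (-0.64, 0.214) or 4 (-0.71, 0.169), and without S100 replicate 2 (-0.91, 0.118), 3 (-0.84, 0.153) or 4 (-0.86, 0.140). The sign stayed negative in all 14 of each.

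miR-148a-3p was not called different between S100 and cell lysate. The log2 fold change was 0.05 ± 0.42 with an adjusted p of 0.937, and its 95% interval ran from -0.81 to 0.91. None of the members was called in this comparison by edgeR, with 0 at an unadjusted p below 0.05, while DESeq2 called 1. Among all tested miRNAs 62.1% were called here in either direction.

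P100 spanned the widest fold range of the groups in miR-148a-3p. Its level was 948, 2884, 3941 and 3855 CPM in replicates 1 to 4, from 16, 67, 90 and 38 counts, a mean of 2907 ± 1391 CPM (SD, n = 4). Replicate 1 lay below all cell lysate libraries and the other 3 lay above them. The log2 fold change over cell lysate was 0.78 ± 0.41 with an adjusted p of 0.139. Without P100 replicate 1 it was 1.06 with an adjusted p of 0.0274. By edgeR 0 members were called between P100 and cell lysate, 0 at an unadjusted p below 0.05 and 1 by DESeq2, which gave miR-148a-3p 0.94 with an adjusted p of 0.0416. In this comparison 37.4% of tested miRNAs were called in either direction.

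Leaving out the same replicate changed the call for S100 against P100, where miR-148a-3p had a log2 fold change of -0.72 ± 0.40 with an adjusted p of 0.126 as reported and -1.02 with 0.0206 without P100 replicate 1. Against total exRNA, P100 differed by -0.57 ± 0.37 (adjusted p 0.251), and against P40 by -0.49 ± 0.37 (adjusted p 0.439). P40 and total exRNA differed by -0.07 ± 0.36 (adjusted p 0.903). For P100 against total exRNA and P40 against total exRNA edgeR called 0 members, with 0 at an unadjusted p below 0.05 and 0 by DESeq2, beside 27.8% and 11.9% of all tested miRNAs. In order of mean level, miR-148a-3p ran from total exRNA through P40, P100 and S100 to cell lysate, and no 2 neighbours in that order differed past the threshold.

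**Figure D2:**
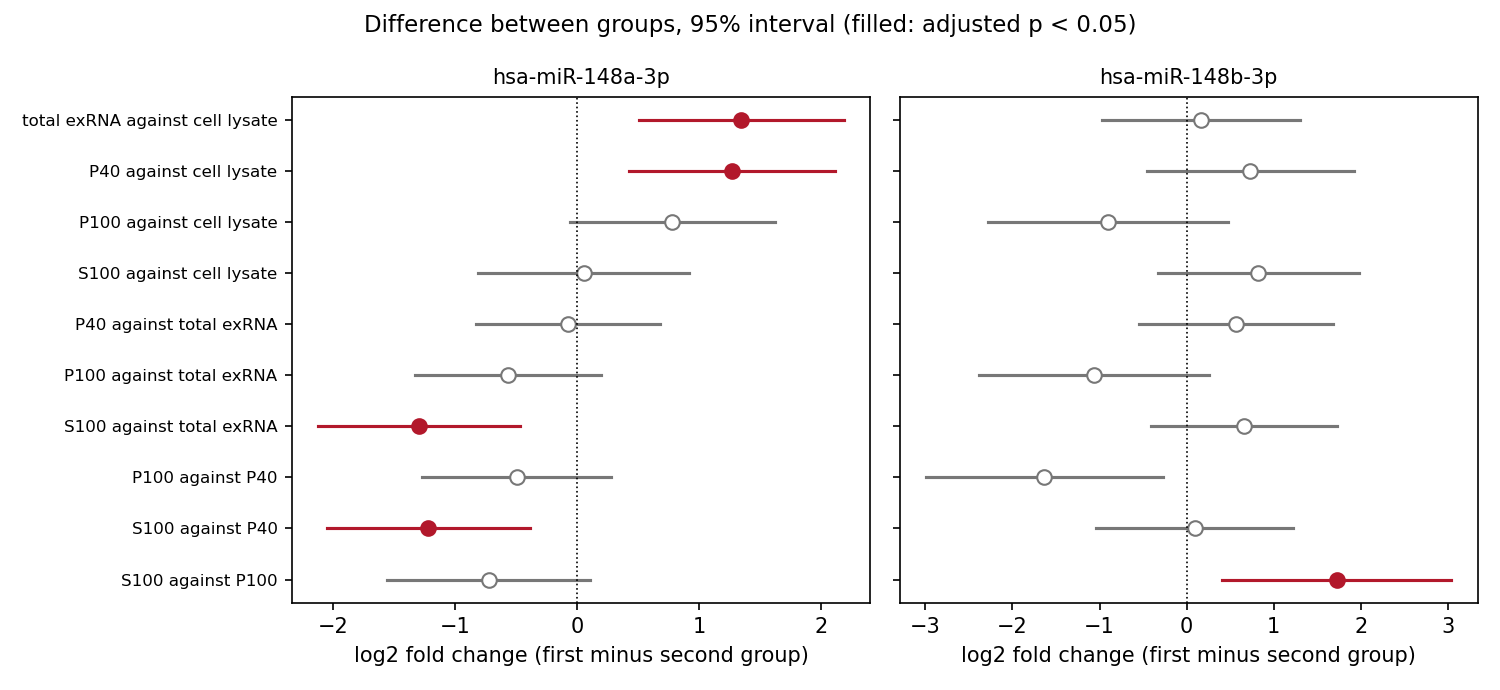
Log2 fold change of miR-148a-3p and miR-148b-3p in the 10 comparisons between groups (horizontal axis, first minus second group) with 95% intervals; filled red points passed an adjusted p of 0.05. miR-148a-3p passed in 4 comparisons, 2 above cell lysate and 2 with S100 below another extracellular group, while miR-148b-3p passed in S100 against P100 alone.

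miR-148b-3p, the member with the same length and 2 changed bases, followed another order. In S100 its level was 503, 375 and 430 CPM in replicates 2, 3 and 4, from 98, 90 and 82 counts, a mean of 436 ± 64.5 CPM (SD, n = 3). In P100 it was 119, 129, 43.8 and 304 CPM in replicates 1 to 4, from 2, 3, 1 and 3 counts, a mean of 149 ± 110 CPM (SD, n = 4). Every S100 library lay above every P100 library. P40 had 564, 215, 519 and 316 CPM, from 9, 4, 15 and 4 counts, and a mean of 404 ± 166 CPM (SD, n = 4). Total exRNA had 104, 459, 313 and 194 CPM, from 4, 31, 17 and 7 counts, and a mean of 268 ± 153 CPM (SD, n = 4). Cell lysate had 105, 318 and 274 CPM, from 3, 43 and 17 counts, and a mean of 232 ± 113 CPM (SD, n = 3). P40, total exRNA and cell lysate overlapped one another, and only S100 exceeded 80 counts in any library.

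S100 was higher than P100 in miR-148b-3p, by a log2 fold change of 1.72 ± 0.64 with an adjusted p of 0.0231, where 28.6% of tested miRNAs were called higher. Within 3 batches the difference ran from 0.50 to 3.10, its sign fixed by the ranges, which do not overlap. With the batch number as a block in the fit, the value was 1.59 with an adjusted p of 0.0531, so the call was lost. It was also lost without P100 replicate 2 (1.71, adjusted p 0.0524) and without P100 replicate 3 (1.37, 0.0941), and held in the other 10 of 13 alternatives. The P100 side of this value rests on 1 to 3 counts a library.

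P100 was lower than P40 in miR-148b-3p in 4 of 4 batches, by -3.57 to -0.06, with a log2 fold change of -1.63 ± 0.66. Its unadjusted p was 0.0208 and its adjusted p 0.139, so edgeR called 0 members there, with 1 at an unadjusted p below 0.05 and 0 by DESeq2, and 4.85% of all tested miRNAs were called. The 3 S100 libraries lay above the 3 of cell lysate without overlap, yet the log2 fold change of 0.83 ± 0.56 had an adjusted p of 0.214. DESeq2 gave 1.23 with an adjusted p of 0.0222 for that difference. The other comparisons of miR-148b-3p had adjusted p-values between 0.214 and 0.884. In order of mean level the groups ran from S100 through P40, total exRNA and cell lysate to P100, and no neighbours differed past the threshold.

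miR-148b-3p passed the filter on low counts through 9 libraries at or over its cutoff of 278 CPM by library size, before TMM, which were 3 of S100, 1 of P100, 3 of P40 and 2 of total exRNA. miR-148a-3p passed in 18 of 18. miR-152-3p reached the cutoff in none and was not tested.

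miR-152-3p was the rarest member and was counted mainly in S100. S100 had 26, 19 and 27 counts in replicates 2, 3 and 4, P100 had 0, 0, 0 and 2, P40 had 0, 1, 1 and 0, total exRNA had 5, 1, 2 and 4, and cell lysate had 1, 4 and 1. S100 is also the deepest group, so shares are the fair scale: 0.0112% of pooled counts in S100, 0.00255% in P100, 0.00286% in P40, 0.00653% in total exRNA and 0.00230% in cell lysate. By CPM all 3 S100 libraries lay above all of cell lysate and all of P40, and overlapped total exRNA and P100. Depth limits the separation from P40. By exact 95% intervals, its libraries at 0 allow shares up to 0.0256% and 0.0352%, above the highest S100 share of 0.0131%.

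The ratio of the S100 share to the cell lysate share of miR-152-3p was 4.86, with an exact 95% interval of 2.13 to 13.7 that covers counting error only. In the batches that hold the 2 groups, the difference was 2.17 and 2.30 on the log2 scale, with a sign fixed by the separate ranges. The ratio of S100 to P40 was 3.92 (1.05 to 33.0) and of S100 to P100 4.39 (1.17 to 36.9), each against 2 counts in a whole group. Both P100 counts lie in replicate 4, and in that batch, the only one with counts in both groups, S100 was lower than P100 by -0.52 on the log2 scale. The ratio of mean shares of S100 to P100, which weights libraries equally, was 2.26. Against P40 the difference was 1.31 and 1.19 in the batches with counts in both groups, again with a fixed sign. Against total exRNA, where the ranges overlap, S100 was higher in 3 of 3 batches, by 0.35 to 3.17. The ratio of S100 to total exRNA was 1.71 (0.924 to 3.47), an interval that includes no difference. Tested with no filter on low counts, S100 against cell lysate gave 2.75 ± 1.05 with an adjusted p of 0.0491. The same setting gave S100 2.52 ± 1.19 against P100 (adjusted p 0.160), 2.71 ± 1.18 against P40 (0.120) and 1.23 ± 0.89 against total exRNA (0.434), none of them called. The medians there were 0.64, 0.37 and 0.12, in the same order. In a fit of S100 and cell lysate alone miR-152-3p had 2.05 ± 0.66 with an adjusted p of 0.0162, where the median was -0.12.

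Because the members' counts come from the same libraries, their proportions need no scaling between libraries. miR-148a-3p made up 74.5% to 77.5% of the family's counts in S100, 88.4% to 98.9% in P100, 83.0% to 94.8% in P40, 91.5% to 93.6% in total exRNA and 82.4% to 89.7% in cell lysate. The 3 S100 libraries therefore lay below all 15 others. miR-148b-3p made up 17.9% to 20.2% in S100, 1.10% to 11.1% in P100, 5.19% to 17.0% in P40, 2.86% to 7.59% in total exRNA and 7.69% to 16.1% in cell lysate. miR-152-3p made up 3.92% to 5.88% in S100, and between 0% and 4.65% elsewhere. The pooled share of miR-148a-3p was 76.1% of 1430 counts in S100 (exact 95% interval 73.8% to 78.3%) and 85.0% of 460 counts in cell lysate (81.4% to 88.1%).

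Put as a ratio, S100 had 3.69 to 4.27 counts of miR-148a-3p for each count of miR-148b-3p. The ratio was 8 to 90 in P100, 4.89 to 18.3 in P40, 12.1 to 32.8 in total exRNA and 5.12 to 11.7 in cell lysate. The wide ranges of P100 and P40 rest on 1 to 15 counts of miR-148b-3p per library. In whole-library terms the family took a mean of 0.223% of counts in S100, 0.292% in P100, 0.505% in P40, 0.494% in total exRNA and 0.169% in cell lysate.

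**Figure D3:**
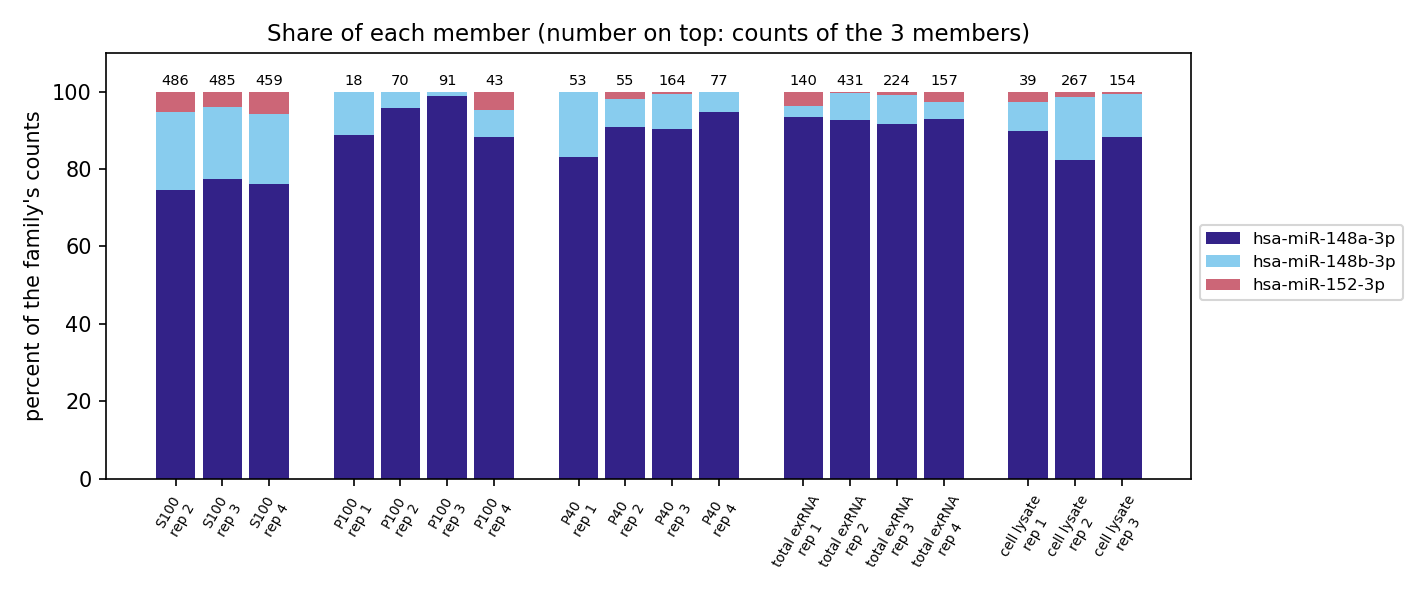
Share of each member in the family's counts (vertical axis, percent) in each library, grouped as S100, P100, P40, total exRNA and cell lysate; the number on top of a bar is the sum of the 3 members' counts. The 3 S100 bars have the smallest miR-148a-3p segment, 74.5% to 77.5%, and total exRNA the narrowest range among groups of 4, 91.5% to 93.6%.

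miR-148a-5p, which comes from the other arm of the MIR148A hairpin, was followed as a companion that is no member of the seed family. It had 67 counts in S100, 3 in P100, 2 in P40, 10 in total exRNA and 10 in cell lysate. As a share of both arms it was 5.80% in S100 (exact 95% interval 4.52% to 7.31%), 1.40% in P100, 0.631% in P40, 1.12% in total exRNA and 2.49% in cell lysate (1.20% to 4.54%). Single libraries ran from 5.05% to 6.67% in S100 and from 1.35% to 4.23% in cell lysate, so these ranges do not overlap. The cell lysate values rest on 1, 3 and 6 counts of miR-148a-5p, and the 2 pooled intervals do overlap slightly.

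Over the 18 libraries, log2 CPM of miR-148a-3p and miR-148b-3p had a Pearson r of 0.16, given as a description since the libraries share groups and differ in depth. Among 226 other tested miRNAs, those most like miR-148a-3p were miR-19a-3p (r = 0.74), a member of the miR-17-92 cluster, miR-26b-5p (0.66) and miR-663b (0.62). Mean levels of miR-19a-3p were 1262 CPM in S100, 3596 in P100, 2065 in P40, 4717 in total exRNA and 1956 in cell lysate. Those most like miR-148b-3p were miR-24-3p (0.69), miR-17-3p (0.62) and miR-29a-3p (0.61). Mean levels of miR-24-3p were close to one another, 3517 CPM in S100, 2938 in P100, 3313 in P40, 3220 in total exRNA and 3103 in cell lysate. Those of miR-17-3p were 1851, 89.9, 190, 464 and 401 CPM in the same order. Mean levels of miR-29a-3p, of a family known for targeting DNMT3A and DNMT3B, were 5348 CPM in S100, 1474 in P100, 2231 in P40, 2541 in total exRNA and 2171 in cell lysate.

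Other miRNAs reported to target DNA methyltransferases were followed as a list of 8, of which 7 were tested. Between S100 and cell lysate 5 were higher and 0 lower, beside 32.2% of all tested miRNAs called higher: miR-29a-3p by 1.28 ± 0.43 (adjusted p 0.0114), miR-29b-3p by 4.17 ± 0.79, miR-29c-3p by 1.82 ± 0.51, miR-126-3p by 1.60 ± 0.54 and miR-185-5p by 3.35 ± 0.79. Over the whole cell lysate group miR-29b-3p had 9 counts and miR-185-5p 17, against 494 and 696 in S100, so these 2 values rest on few cell lysate counts. The list's median log2 fold change was 1.60 in S100 against cell lysate, beside -0.04 over all tested miRNAs. S100 was higher in 4 of the 7 against total exRNA, 5 against P40 and 4 against P100, and lower in 0 in each of these, with miR-29a-3p, miR-29b-3p, miR-29c-3p and miR-185-5p higher in all 3. Of all tested miRNAs, 29.5% were called higher against total exRNA, 25.1% against P40 and 28.6% against P100. In either direction 63.4%, 52.9% and 59.9% were called, in the same order. Over the whole P100 group miR-29b-3p had 10 counts and miR-185-5p 3, and over P40 14 and 9. Total exRNA was higher than cell lysate in miR-29b-3p alone, by 2.13 ± 0.79 (adjusted p 0.0401), where 18.9% of all tested miRNAs were called higher. The cell lysate side of that value is the same 9 counts. In P100 against cell lysate 16.7% of all tested miRNAs were called higher and 20.7% lower, and in P100 against total exRNA 14.5% were called lower. P100 was higher than cell lysate in miR-342-3p, by 1.63 ± 0.64 (adjusted p 0.0484), and lower in miR-29c-3p, by -1.83 ± 0.55 (adjusted p 0.0116), which was also lower in P100 than in total exRNA, by -2.47 ± 0.52 (adjusted p 0.00111). By edgeR P40 had 0 of 7 called against cell lysate (1 at an unadjusted p below 0.05, 1 by DESeq2), beside 26.9% of all tested miRNAs called in either direction, and 0 against total exRNA (0 and 0), and P100 had 0 against P40 (1 and 1). Of all tested miRNAs 5.73% were called higher and 6.17% lower in P40 against total exRNA, and 2.2% higher and 2.64% lower in P100 against P40. No called miRNA of the list changed sign under library-size scaling, RLE size factors, no filter or DESeq2. In S100 against total exRNA, however, a lower call was gained: library-size scaling gave 4 higher and 1 lower, and DESeq2 5 higher and 1 lower.

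**Figure D4:**
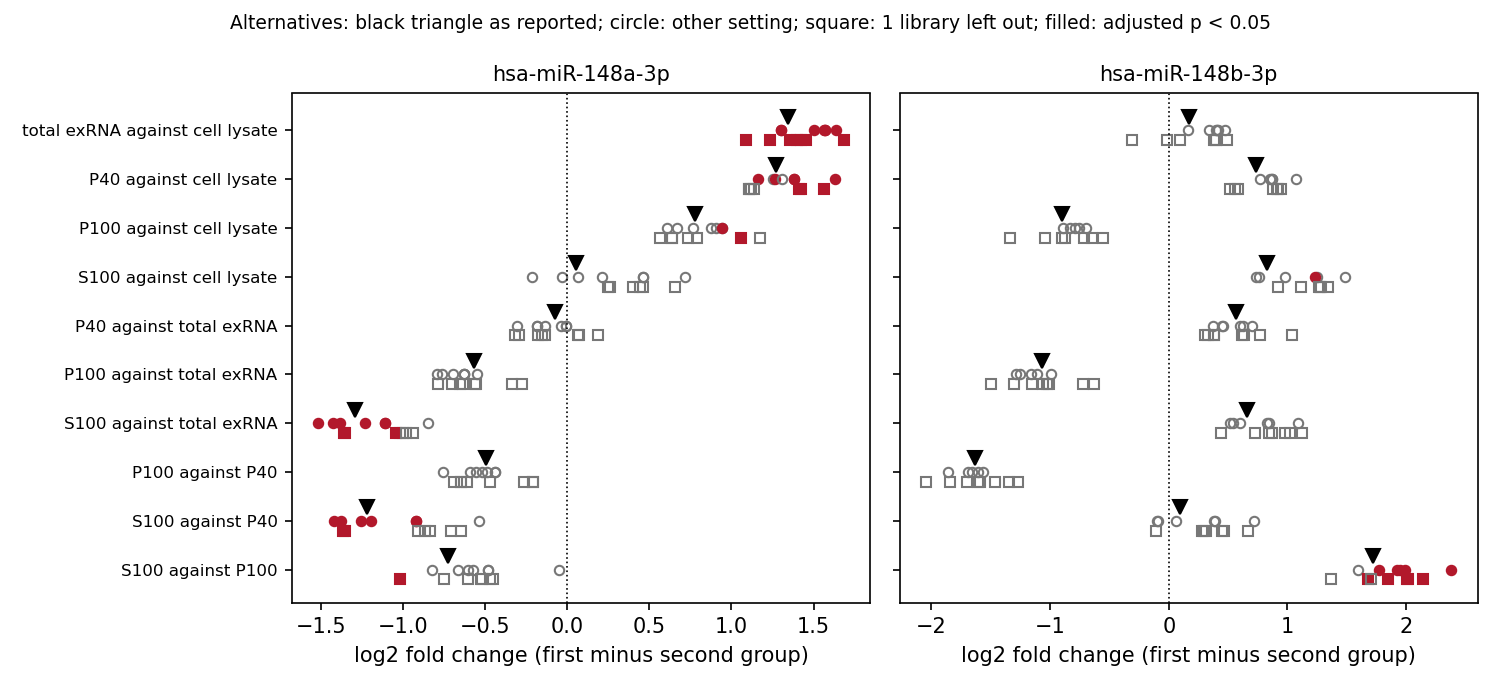
Log2 fold change of miR-148a-3p and miR-148b-3p in the 10 comparisons (horizontal axis, first minus second group) under each alternative; black triangles are the reported values, circles other settings, squares fits without 1 library, and filled red marks passed an adjusted p of 0.05. All marks of miR-148a-3p in total exRNA against cell lysate are filled, while those in S100 against total exRNA and S100 against P40 are mixed.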

How the data were processed

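The RealSeq-AC kit version 2 was used to build the small RNA libraries, per the labels' protocols. Reads were handled with cutadapt 1.16, FastQC and Bowtie2 on GRCh38, per the submitters' processing notes. The deposited files hold raw read counts per mature miRNA, 1 file per library. The Bowtie2 version, the miRNA annotation release and the treatment of reads that match several miRNAs are not given in the sources used here. Reads carry no molecular identifiers in these files, so intervals (exact Clopper-Pearson, 95%) and limits from 3 counts cover counting error only.

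Groups came from the labels. Of 19 libraries 18 were kept, those with at least 100 detected miRNAs. filterByExpr (minimum count 10, minimum total 15) left 227 miRNAs with 98.5% to 99.1% of each library's counts. One edgeR 4.0.16 quasi-likelihood fit over all 5 groups with TMM scaling gave the 10 comparisons, with Benjamini-Hochberg adjustment over all 227, and the biological coefficient of variation was 0.419. DESeq2 1.42.0, 2 other scalings, no filter, fits of 2 groups, equal depth of 10017 counts, the replicate block and leaving out each library were alternatives. The procedure was checked on simulated data in R 4.3.3. The labels' batch number, shared across groups, is where the pairing comes from. The deviations of same-numbered libraries correlated by -0.57 to 0.31 over 32 pairs of libraries (median -0.00195, 7 over 0.1).

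Named miRNAs are the 3 members, the called members of the DNA methyltransferase, blood and mesenchymal lists, and for each tested member the 3 miRNAs with the highest Pearson r. Called members of the epithelial list are named for S100 against cell lysate only, and other comparisons also held calls in that list. One further list of miRNAs is not reported here. The members and lists were chosen with earlier results of these data known. CPM correlations used log2 with a prior count of 2. Intervals on ratios of miR-152-3p shares are exact and conditional on the summed count.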

Additional observations from a re-analysis of the deposited data

Results flagged for a closer look

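The 3 members, miR-148a-5p, the family's share of each library and the share of miR-148a-3p in the family were examined in each group of 4 libraries for a library far from its group. Of these 18 sets 2 had one. Chance gives about 1 in 20 for continuous values, a rate that does not apply to either set, since each has 3 libraries at 0 and any count in the fourth library would stand apart. miR-152-3p was at 203 CPM in P100 replicate 4 and at 0 in the other 3 P100 libraries, and that value rests on 2 counts. miR-148a-5p was at 147.98 CPM in total exRNA replicate 2, from 10 counts, and at 0 in the other 3 total exRNA libraries. Total exRNA replicate 2 also had the lowest mean Spearman correlation with its own group among the 4 total exRNA libraries, 0.837, and the highest total exRNA level of miR-148a-3p, 5904 CPM. Without it the miR-148a-3p difference from cell lysate was 1.09 ± 0.41 on the log2 scale (adjusted p 0.0407, edgeR).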

How the results depend on the processing

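Of 270 recomputed fold changes of miR-148a-3p and miR-148b-3p, no called one changed sign, 246 kept their side of the threshold, 20 lost the call and 4 gained it. The cause was not tested, apart from what a setting fixes by itself, such as fewer libraries or counts. Members called were 0 in place of 1 for P40 against cell lysate with no filter or only 2 groups, for S100 against total exRNA and S100 against P40 with no filter, and for S100 against P100 with the replicate block or equal depth. They were 1 in place of 0 for P100 against cell lysate with DESeq2 and for S100 against cell lysate with no filter, with 2 groups (both miR-152-3p) or with DESeq2. The replicate block changed no other call. Leaving out 1 library gave 0 to 1 members called for P40 and for P100 against cell lysate, 0 to 1 for S100 against total exRNA and against P40, and 0 to 2 for S100 against P100. At equal depth miR-148b-3p missed the filter and had no value, as in some 2-group fits. Over all tested miRNAs, equal depth called 47 in place of 80 for total exRNA against cell lysate, 33 in place of 61 for P40 and 43 in place of 85 for P100 against cell lysate. It called 80 in place of 141 for S100 against cell lysate, 93 in place of 144 for S100 against total exRNA, 90 in place of 136 for S100 against P100 and 5 in place of 11 for P100 against P40. Fits of 2 groups called 27 for P40 against cell lysate and 14 in place of 27 for P40 against total exRNA, where no filter called 17 and DESeq2 44. P100 against P40 had 21 with library size only and 17 with DESeq2. Without 1 library the counts were 53 to 74 for total exRNA, 48 to 65 for P40, 66 to 82 for P100 and 130 to 146 for S100 against cell lysate, 17 to 42 for P40, 48 to 76 for P100 and 125 to 135 for S100 against total exRNA, 3 to 12 for P100 and 109 to 121 for S100 against P40, and 119 to 132 for S100 against P100. Total exRNA against cell lysate had 43 higher and 37 lower as reported, 47 and 19 with library size only, 45 and 23 with RLE, 46 and 21 with no filter, and 50 and 28 with DESeq2. P40 against cell lysate had 31 and 30, but 47 and 19 with library size only. P40 against total exRNA had 13 and 14, but 10 and 17 with RLE and 3 and 14 with no filter. P100 against P40 had 5 and 6, but 5 and 16 with library size only, 5 and 4 with RLE and 10 and 7 with DESeq2. With no filter the share of higher calls was 69.3% for S100 against cell lysate (51.8% as reported), 65.2% against total exRNA (46.5%), 65.6% against P40 (47.5%) and 64.5% against P100 (47.8%). That setting moved the median of all tested miRNAs by 0.70, 0.46, 0.67 and 0.65 in these comparisons, in that order. Depth limits P100 and P40 most, where miR-148b-3p rested on 1 to 15 counts and miR-152-3p on 0 to 2.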
